A study of Mus musculus with 4 samples.

Results

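The transcriptome of CMT64 cells under costimulation with TGF-β and TNF-α was compared with that of control cells, and the observed change of each gene was set beside the change that the separate treatments would give if they combined additively. Genes were taken where the 4 libraries together held at least 100 reads on exons, which left 12355 of 25704 genes. The fewest reads among the genes kept were 100 (17 genes) and the most among those left out were 99 (14 genes), while 8178 genes were left out with some reads and 5171 had no read at all. Among the genes kept, 9933 had an RPKM (reads per kilobase of exon, scaled to the mapped reads of the library) over 2 in at least 1 library, and the departures from additivity were called in these.

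CMT64 is an established line of mouse lung adenocarcinoma cells, derived from an alveologenic lung carcinoma of a C57BL/lcrf mouse, with wild-type p53. The 4 conditions, each held for 24 h, were culture without cytokine (control), TGF-β at 5 ng/ml, TNF-α at 10 ng/ml, and TGF-β at 5 ng/ml together with TNF-α at 10 ng/ml (both). Each condition had 1 library of oligo(dT)-selected RNA from 1 line, so no spread between cultures is known, no test between conditions was possible, and all intervals given below are 95% intervals that cover counting error only.

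TGF-β signals through a pair of receptor kinases to Smad2 and Smad3, which enter the nucleus with Smad4 and act on matrix, adhesion and transcription factor genes in epithelial-mesenchymal transition (EMT). TNF-α signals through its receptors to the IκB kinases, which release NF-κB from its inhibitors, and NF-κB activates chemokines, adhesion molecules, survival factors and its own inhibitors. If both inputs act on a gene independently, their folds multiply and the log2 fold of costimulation equals the sum of the separate log2 folds. The departure used here is the observed log2 fold of costimulation over control minus that sum, so a value of 1 means that expression was 2-fold above the product of the separate folds, and -1 that it was 2-fold below.

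Promoters are shown for the 3 genes with the largest departures each way that RefSeq lists (GRCm38.p6, from 250 bases before to 50 bases after the start of transcription, 5′ to 3′ on the strand of the gene), because these genes carry the comparison with additivity. Capitals mark matches on either strand to the AP-1 motif TGANTCA, the Smad motif CAGACA, the TEAD motif GGAATG and the NF-κB consensus, and the matches do not overlap. Hist1h4b (H4c2 in RefSeq, chr13:23756687-23756986, plus strand), Pglyrp1 (chr7:18884440-18884739, plus strand) and Cideb (chr14:55758375-55758674, minus strand) lay above the sum. Prss46 (chr9:110844256-110844555, plus strand), Cldn4 (chr5:134946885-134947184, minus strand) and C3 (chr17:57228087-57228386, minus strand) lay below it.
Hist1h4b: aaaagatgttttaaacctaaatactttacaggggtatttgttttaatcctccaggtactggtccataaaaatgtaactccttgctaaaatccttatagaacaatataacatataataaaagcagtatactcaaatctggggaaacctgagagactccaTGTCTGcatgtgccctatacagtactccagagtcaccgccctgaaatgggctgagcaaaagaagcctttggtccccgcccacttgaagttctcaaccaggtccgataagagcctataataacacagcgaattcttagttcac
Pglyrp1: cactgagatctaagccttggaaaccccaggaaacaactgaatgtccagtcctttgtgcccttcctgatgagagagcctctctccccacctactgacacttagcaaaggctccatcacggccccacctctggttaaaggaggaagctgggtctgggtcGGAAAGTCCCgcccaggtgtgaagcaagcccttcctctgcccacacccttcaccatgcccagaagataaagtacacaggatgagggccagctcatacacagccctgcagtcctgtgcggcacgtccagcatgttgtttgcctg
Cideb: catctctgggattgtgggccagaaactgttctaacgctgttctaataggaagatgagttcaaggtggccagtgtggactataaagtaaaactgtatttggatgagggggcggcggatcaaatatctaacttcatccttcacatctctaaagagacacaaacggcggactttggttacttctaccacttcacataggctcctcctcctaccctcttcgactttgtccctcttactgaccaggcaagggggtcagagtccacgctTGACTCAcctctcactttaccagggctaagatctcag
Prss46: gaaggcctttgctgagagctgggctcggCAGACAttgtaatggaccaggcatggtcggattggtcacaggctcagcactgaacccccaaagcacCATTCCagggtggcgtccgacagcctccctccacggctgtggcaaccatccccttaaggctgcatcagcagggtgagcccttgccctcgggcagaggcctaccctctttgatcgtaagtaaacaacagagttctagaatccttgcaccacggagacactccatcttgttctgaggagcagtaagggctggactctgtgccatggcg
Cldn4: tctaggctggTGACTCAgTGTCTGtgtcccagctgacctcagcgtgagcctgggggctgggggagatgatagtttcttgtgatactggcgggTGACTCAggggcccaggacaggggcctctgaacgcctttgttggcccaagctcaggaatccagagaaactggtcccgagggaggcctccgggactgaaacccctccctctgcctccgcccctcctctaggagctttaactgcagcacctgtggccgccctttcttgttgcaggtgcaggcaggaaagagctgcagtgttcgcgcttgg
C3: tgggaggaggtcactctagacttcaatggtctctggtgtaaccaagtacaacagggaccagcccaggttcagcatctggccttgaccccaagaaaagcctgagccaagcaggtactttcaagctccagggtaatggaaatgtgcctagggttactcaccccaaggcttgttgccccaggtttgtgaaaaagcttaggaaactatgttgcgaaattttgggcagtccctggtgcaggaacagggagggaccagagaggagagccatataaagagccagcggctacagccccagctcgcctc
The Cldn4 window held the AP-1 motif at 240 and 158 bases before the start and the Smad motif at 232 bases before it. The Prss46 window held the Smad motif at 222 and the TEAD motif at 156 bases before the start, the Hist1h4b window the Smad motif at 92 bases before it, the Pglyrp1 window the NF-κB consensus at 93 bases before it, and the Cideb window the AP-1 motif, starting at base 14 of the transcript. The C3 window held no match to these letters. Among the 32851 promoters of the same length in RefSeq, 7.81% held the AP-1 motif, 21.0% the Smad motif, 14.7% the TEAD motif and 8.46% the NF-κB consensus, so single matches are frequent. Of the 36 genes that departed, 30 had a promoter in that collection.

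The libraries held 75358896 (control), 81245906 (TGF-β), 77606742 (TNF-α) and 75984151 (both) mapped reads, and 86.7 to 88.5% of exon reads were unique. Reads on introns made up 6.72% of the control library and 8.16 to 8.50% of the other 3. The epithelial markers Krt8, Krt18, Krt19 and Cdh1 were expressed in every library (Krt8 at an RPKM of 1051 to 1625), whereas Epcam had too few reads to be kept. Markers of other cell types were near 0: the summed RPKM over the list ranged from 1.81 to 2.16 for 8 haematopoietic markers (2 of them kept), from 0.08 to 0.11 for 6 endothelial markers and from 0.06 to 0.22 for 6 fibroblast markers (none kept in either list).

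The control library stood apart from the other 3 by base composition, and this bears on every departure because the control level enters each of them. Over 10 bins of the GC content of the transcript, the median log2 fold of TNF-α over control ran from 0.30 at a median GC content of 40.3% to -0.26 at 60.0%, and that of costimulation over control from 0.36 to -0.16. The pairs without the control library showed no such slope, with bin medians of 0.04 to 0.09 for both cytokines over TNF-α and -0.02 to 0.03 for both over TGF-β. The median departure therefore ran from -0.31 in the bin lowest in GC to 0.29 in the highest (Spearman 0.64 across 9929 genes, which share all 4 libraries). Departures from intron reads had the same sign of relation (Spearman 0.46 across 9248 genes). With 1 control culture, a difference of that culture and a difference of its library cannot be told apart, and each departure below is therefore also given after centring within these bins where it matters.

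**Figure D1:**
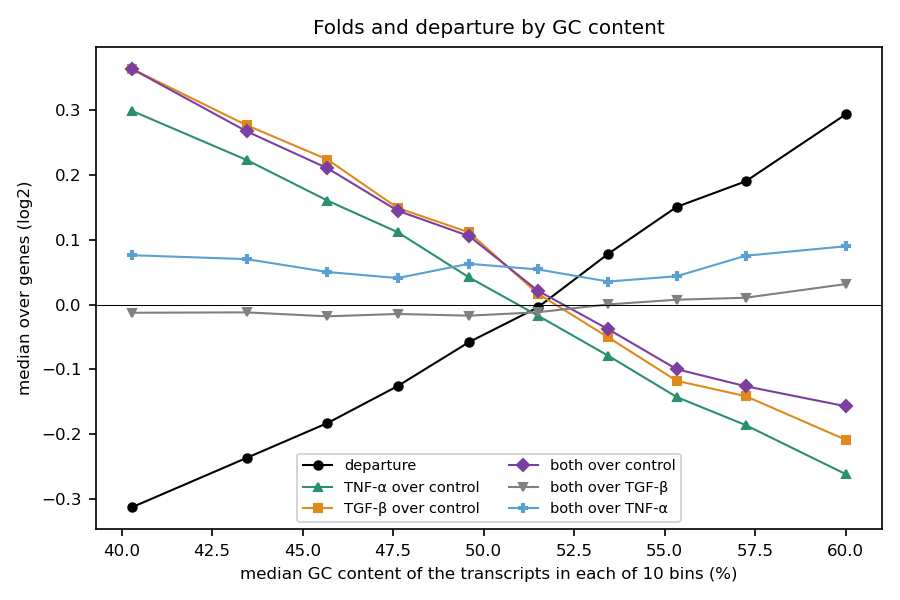
The horizontal axis is the median GC content (%) of transcripts in 10 bins of genes with RPKM over 2 in a library, and the vertical axis is the median log2 fold or departure of each bin. The 3 folds over control decrease with GC content and the departure increases from -0.31 to 0.29, while the lines for both cytokines over TGF-β and over TNF-α, which hold no control library, stay between -0.02 and 0.09.

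Costimulated cells differed from control cells past the threshold in a few percent of genes, and most of these lay close to their level with TGF-β alone. At the threshold of the study (fold over 2 and RPKM over 2 in the costimulated library), 567 of 12355 genes were higher than in control (4.59%), 543 of them named genes, with a median fold of 2.92. At a fold under 0.25 and an RPKM over 1 in control, 282 genes were lower (2.28%), 273 of them named genes. The median log2 fold of the 567 higher genes was 1.55 with costimulation, 1.56 with TGF-β and 0.23 with TNF-α, and the median of the sums was 1.85. The 282 lower genes had a median of -3.0 with costimulation, -2.97 with TGF-β and -0.26 with TNF-α, against -3.20 for the sum. These folds share the control library. Between libraries that do not include it, the median absolute log2 difference of the higher genes was 0.089 for both cytokines against TGF-β and 1.39 for both against TNF-α. For the lower genes these medians were larger, 0.28 against TGF-β and 2.78 against TNF-α. With the TNF-α library as the baseline in place of control, 457 genes were higher, of which 402 were among the 567, and 234 were lower, of which 213 were among the 282.

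The highest folds over control were in genes of matrix, membrane and secreted proteins. Ctsw, a cathepsin protease, had an RPKM of 0.0754 without cytokine, of 61.4 under TGF-β, of 0.0628 under TNF-α and of 67.7 under both, an order kept for all lists of 4 values below, and was 897-fold (435 to 2233) over control. The matricellular Wnt target Wisp1 had 0.0208, 9.05, 0.0379 and 9.96, 478-fold (242 to 1109). In both genes the libraries with TGF-β were high and both without it were low. Cldn4, a tight junction claudin, had 0 reads in control and 9 with TNF-α against 3246 with TGF-β and 3191 with both. With a library without reads set to 3, this is 1055-fold higher, and the lower end of the counting interval was 857. The hyaluronan synthase gene Has2, the acetylcholine receptor subunit gene Chrna1, and Crispld2, Elfn1, Sema4f and the gut hormone gene Pyy were also among the highest. Pyy was 285-fold higher with the same setting of 3 reads. Counting only unique reads, those assigned to 1 place, the log2 fold went from 8.48 to 6.33 for Crispld2 and from 8.34 to 10.13 for Elfn1.

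The lowest folds included several genes of secretory and mucosal epithelium. Igfbp5, a binding protein of insulin-like growth factors, had 85.8, 0.139, 46.3 and 0.0285 RPKM, a fold of 0.000332 (0.000177 to 0.000568). The trefoil peptide gene Tff1 had 1465, 9.27, 1014 and 8.73, and its fold was 0.00596 (0.00532 to 0.00665). The trefoil gene Tff3 had 982, 0, 405 and 1 reads. Here too the libraries split by TGF-β, while TNF-α alone left Igfbp5, Tff1 and Tff3 below control. Bcas1, Sptssb, the mucin gene Muc4, the connexin gene Gjb1, Lrrc26, the apolipoprotein gene Apoc2 and Depp1 completed the 10 lowest, and their folds ranged from 0.00108 to 0.00372. With unique reads the log2 fold of Muc4 went from -8.72 to -10.90 and that of Apoc2 from -8.08 to -0.43. The low fold of Apoc2 thus rested on reads shared between places. Whether its unique reads were enough to measure a fold was not tested.

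Departures from additivity were small in most genes. Over the 9933 genes the median was -0.01, the 5th to 95th percentiles were -0.54 to 0.44, and 94.7% (9402 genes) lay within 1.5-fold of the product of the separate folds. The share within 1.5-fold was 52.1% for genes with a mean of 25 to 100 reads per library, 82.3% from 100 to 1000 reads, 95.6% from 1000 to 10000 and 97.0% above. There were 12 genes more than 2-fold above the sum (0.121%) and 24 genes more than 2-fold below it (0.242%), with a counting interval that excluded 0 for both total and unique reads. At 1.5-fold the counts were 121 above (1.22%) and 336 below (3.38%).

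**Figure D2:**
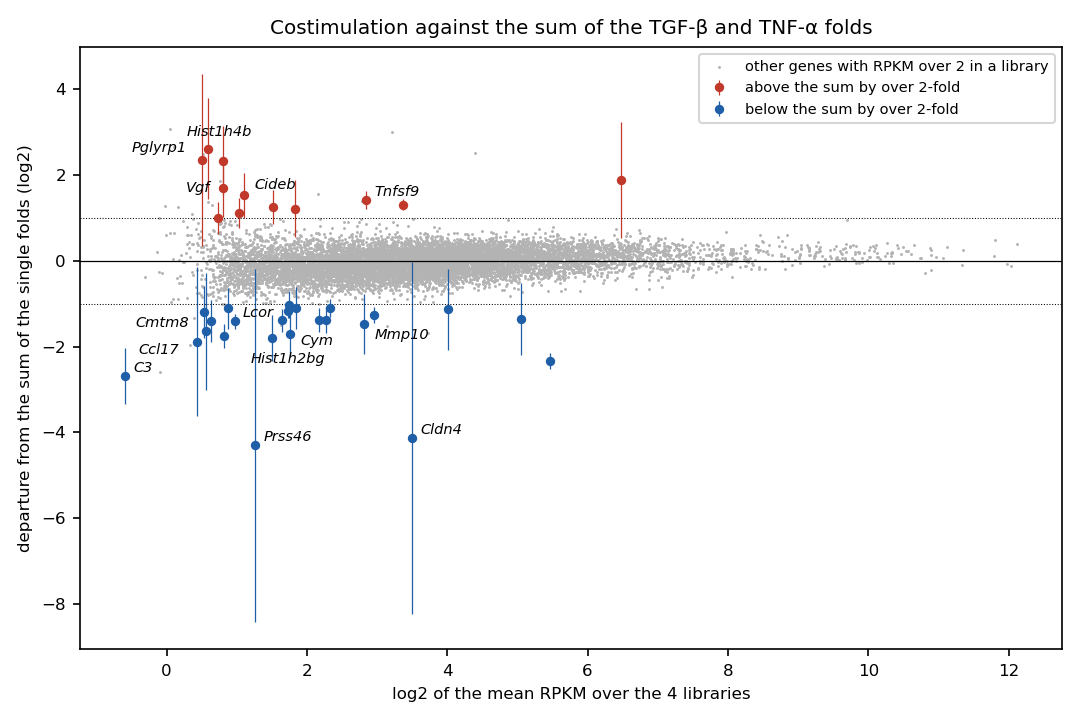
Each point is a gene with RPKM over 2 in a library. The horizontal axis is the log2 of its mean RPKM over 4 libraries and the vertical axis its departure (log2). Bars are 95% counting intervals from read counts plus 0.5, dotted lines mark departures of 1 and -1, red points are the 12 genes above and blue points the 24 below. The 2 widest bars belong to Prss46 and Cldn4, which had no read in control.

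Base composition moved with the direction of the departures, and its part in single genes was not tested. The median GC content was 56.9% for the 12 above and 49.8% for the 24 below, against 50.5% for all, and at 1.5-fold it was 58.5% above and 43.2% below. After centring within bins of GC content all 36 kept their sign, with 10 of the 12 and 20 of the 24 still past 2-fold. Intron reads, counted apart from exon reads, numbered at least 10 in every library for 5 of the genes above, of which 3 had the same sign, and for 12 of those below, of which 10 had the same sign. A library with fewer than 10 exon reads entered 3 of the departures above and 4 of those below. The pattern in which control alone was low, by more than 1.5-fold against 3 libraries that lay within 1.5-fold of each other, was defined after the values were seen. It held in 6 of the 24 genes below and in 82 of the 336 at 1.5-fold (24.4%), whereas control alone was high in 1 of 12 and 6 of 121 genes above. By definition, a gene low in control alone can only lie below the sum, and a gene high in control alone only above it. The share of these patterns over all 9933 genes was not counted.

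Among the genes above the sum, membrane and secreted proteins were best supported by reads. Tnfsf9, which encodes the costimulatory ligand of 4-1BB, had 10.5, 4.91, 5.91 and 7.44 RPKM. Each cytokine alone was thus associated with a lower level, and the costimulated library lay between these and control. The product of the separate folds was 0.265 and the observed fold 0.710 (0.644 to 0.781), a departure of 1.42 (1.20 to 1.64), and 1.43 after centring by GC content. Slco4a1, an organic anion transporter, had 7.15, 12.7, 3.95 and 17.4. It was therefore lowest with TNF-α alone and highest with both, with an observed fold of 2.43 (2.30 to 2.57) against a product of 0.98 and a departure of 1.31 (1.18 to 1.44). The departure from introns of Slco4a1, with 305 to 1009 intron reads per library, was 0.62.

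Ankrd37, an ankyrin repeat gene known as a target of hypoxia signalling, had 3.92, 2.38, 2.10 and 3.05 RPKM and a departure of 1.26 (0.86 to 1.66). As for Tnfsf9, both separate treatments were below control and costimulation lay between them and control. Its span overlaps Ufsp2 and Lrp2bp on the other strand, and since strand is not stated for the counting, their reads cannot be told apart. Ybx2, a nucleic acid-binding protein of germ cells, had 2.37, 2.03, 1.31 and 2.45, with a departure of 1.12 that became 0.83 after centring. Tmem102 had 2.70, 1.18, 1.49 and 1.31, so that control alone was high, and its departure of 1.01 became 0.82. Vgf, a neuropeptide precursor, had 0.308, 2.99, 0.113 and 3.59, lowest with TNF-α alone and highest with both, and departed by 1.69 (1.03 to 2.36).

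The largest values above the sum rested on few reads in at least 1 library. Hist1h4b, a histone H4 gene, had RPKM values of 1.34, 1.95, 0.26 and 2.45 from 40, 63, 8 and 74 reads, so TNF-α alone was low. Its departure was 2.62 (1.45 to 3.79), and 1.65 with unique reads. Replication-dependent histone mRNAs mostly lack the poly(A) tail that the libraries selected. Pglyrp1, a peptidoglycan recognition protein, had 145, 2, 144 and 11 reads, Cideb, a lipid droplet protein, had 412, 57, 242 and 88, and Pdzk1ip1 had 700, 33, 459 and 46. All 3 of these were low with TGF-β, less so with both, and departed by 2.35, 1.53 and 1.22. The Cideb span overlaps Nop9 on the other strand, and the intron departures of Pglyrp1 and Cideb had the opposite sign (-0.60 and -1.07).

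**Figure D3:**
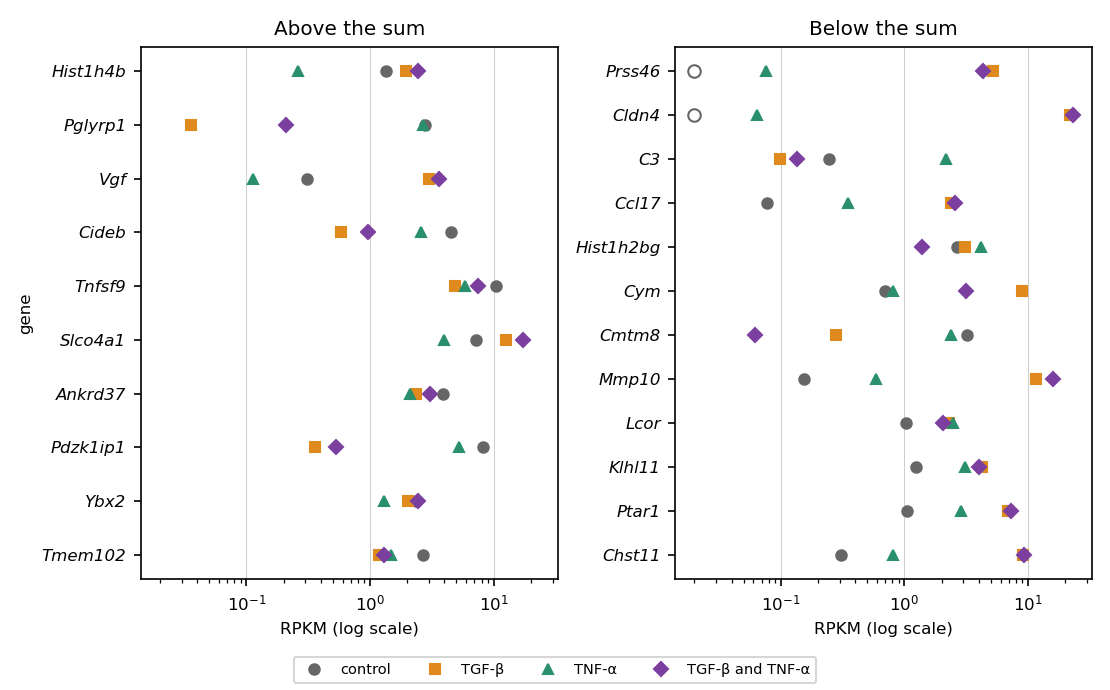
RPKM (log scale) in each of the 4 libraries for the named genes with the largest departures, 10 above the sum at the left and 12 below it at the right. Each symbol is 1 library and open symbols at the left edge mark libraries with 0 reads. Tnfsf9 and Ankrd37 have both separate treatments below control and costimulation between them, and C3 is high only in the TNF-α library.

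Below the sum, the complement gene C3 had the largest departure among genes with reads in all 4 libraries. C3, the central component of complement and a known NF-κB target, had 0.245, 0.0983, 2.18 and 0.136 RPKM, from 95, 41, 868 and 53 reads. It was high only with TNF-α alone, the library through which it passed the RPKM minimum of 2. The fold of TNF-α over control was 8.87 (7.17 to 11.1), and that of both over TGF-β, which shares no library with the former, was 1.38 (0.902 to 2.13). The product of the separate folds was 3.56 and the observed fold 0.553 (0.388 to 0.782), a departure of -2.68 (-3.34 to -2.02) that was -2.75 after centring.

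Other inflammatory genes showed a smaller TNF-α fold in the presence of TGF-β. Cxcl3, a neutrophil chemokine, had 2.47, 0.836, 9.61 and 1.52 RPKM, and the fold of TNF-α was 3.89 (3.32 to 4.59) without and 1.81 (1.34 to 2.48) with TGF-β. C1s1, a protease of the classical complement pathway, had 1.70, 10.2, 5.53 and 13.8, and its folds of TNF-α were 3.26 (2.91 to 3.67) and 1.36 (1.29 to 1.43). In C1s1 TGF-β itself was associated with a higher level, in C3 and Cxcl3 with a lower level, so the departures of -1.26 and -1.10 in C1s1 and Cxcl3 arose on different levels. After centring they were -1.13 and -0.86, which left Cxcl3 within 2-fold. The T cell chemokine Ccl17 had 3, 99, 14 and 101 reads, and its departure of -1.88 (-3.61 to -0.15) rested on the 3 control and 14 TNF-α reads.

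A further group was high in both libraries with TGF-β and low in both without it. The protease genes Prss46 and Mmp10, Cldn4, and Chst11, a chondroitin sulfotransferase, belong here. The larger relative difference made by TNF-α was at the low levels without TGF-β, but with TGF-β it was 1.36-fold (1.27 to 1.45) for Mmp10 and 0.840-fold (0.740 to 0.953) for Prss46. Mmp10 had 0.154, 11.6, 0.591 and 15.8 RPKM, and Chst11 0.305, 9.09, 0.802 and 9.21. For Chst11 the fold of TNF-α was 2.63 (2.14 to 3.25) over control and 1.01 (0.969 to 1.06) over TGF-β. The departures were -1.47 (-2.18 to -0.76) for Mmp10 and -1.37 (-1.67 to -1.07) for Chst11. Prss46 had 0, 565, 8 and 444 reads and Cldn4 0, 3246, 9 and 3191. Taking the control at the floor of 3 reads, the departures were -1.62 for Prss46 and -1.47 for Cldn4. The 8 and 9 reads with TNF-α still carry counting error, so these values are not lower limits. Without this floor the departures were -4.30 (-8.41 to -0.18) for Prss46 and -4.13 (-8.24 to -0.03) for Cldn4. These intervals reach almost to the sum. When expression was added in RPKM rather than multiplied, the departures of Cldn4 and Mmp10 turned to 0.068 and 0.39.

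Lcor, a ligand-dependent nuclear receptor corepressor, had 1.03, 2.28, 2.48 and 2.06 RPKM, and Klhl11, an adaptor of cullin ubiquitin ligases, 1.24, 4.21, 3.09 and 4.0. In both genes control was low and the other 3 libraries were similar. Ptar1, a prenyltransferase subunit, had 1.05, 6.92, 2.88 and 7.22, with both TGF-β libraries high and TNF-α between. The departures were -1.41, -1.39 and -1.39, and after centring -1.17, -1.32 and -1.06. The transcripts of Lcor (42.0% GC) and Ptar1 (39.5%) are low in GC, the range in which the control library was low in general.

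Cym and Hist1h2bg had patterns of their own. Cym, which encodes a gastric aspartic protease, had 0.698, 8.85, 0.813 and 3.15 RPKM, so that costimulation gave a level below that of TGF-β alone. The fold of both over TGF-β was 0.356 (0.311 to 0.407) and that of TNF-α over control 1.17 (0.828 to 1.65). Its departure was -1.71 (-2.22 to -1.20) from exon reads and -1.67 from 14 to 135 intron reads per library. Hist1h2bg, a histone H2B gene, had 2.66, 3.09, 4.17 and 1.38, lowest with both, and departed by -1.80 (-2.32 to -1.27). Cmtm8, Igfbp5 and Sptssb were low with TGF-β and lower with both. Cmtm8 had 255, 24, 197 and 5 reads and Igfbp5 38854, 68, 21585 and 13, with departures of -1.64 (-3.01 to -0.28) and -1.36 (-2.20 to -0.51).

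Whether the TNF-α response persisted in the presence of TGF-β was read from 2 pairs that share no library, TNF-α over control and both over TGF-β. With a fold over 2 and an RPKM over 2 in the higher library, 24 genes were higher in the first pair (0.194% of 12355) and 13 in the second (0.105%), and 6 were in both, which is 25% of the first and 46.2% of the second. The first set had a median log2 fold of 1.30 in its own pair and 0.42 in the other, where 16 of the 24 lay within 1.5-fold. The second set had 1.37 in its own pair and 1.23 in the other, where 9 of 13 passed 2-fold. In the first set 10 genes were below the sum by over 2-fold, in the second none, a contrast that the choice of the sets in part fixes, since the departure is the log2 fold of the second pair minus that of the first. Only the first pair holds the control library, and the median GC content was 47.0% in the first set and 52.0% in the second. Some genes of the first set, among them Lcor, Klhl11 and Mmp13, were low in control alone. In such genes a smaller response with TGF-β and a difference of the control library cannot be told apart. The genes named from these sets were chosen after their values were seen.

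A few feedback genes and subunits of NF-κB were more than 2-fold higher with TNF-α in both pairs, while others, such as Nfkb1 and Rela, differed little. Nfkbia, which encodes the inhibitor IκBα, had 18.8, 12.2, 51.4 and 26.7 RPKM, and folds of TNF-α of 2.73 (2.6 to 2.86) without and 2.18 (2.05 to 2.32) with TGF-β. The subunit gene Relb had 4.58, 4.43, 10.0 and 11.4, and folds of 2.18 (2.02 to 2.36) and 2.58 (2.39 to 2.79). The inhibitor gene Nfkbie had 1.04, 0.915, 2.20 and 2.62, and folds of 2.11 and 2.87. In all 3 genes both TNF-α libraries were above their own reference. Tnfaip3, a ubiquitin-editing inhibitor of NF-κB, had 5.66, 17.3, 12.1 and 23, highest with both, and its folds were 2.15 (2.04 to 2.26) and 1.32 (1.28 to 1.37), a departure of -0.70 (-0.78 to -0.61). Of 16 measured NF-κB subunits and feedback genes, Tnfaip3 was below the sum at 1.5-fold and none above, with a median departure of 0.05 (-0.14 after centring).

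Surface and secreted targets went both ways. Some had larger folds of TNF-α with TGF-β than without it. The adhesion molecule Vcam1 had 9.65, 1.55, 19.2 and 3.88 RPKM, so both TGF-β libraries were low, and TNF-α gave 1.99-fold (1.91 to 2.07) and 2.5-fold (2.28 to 2.75). The neutrophil chemokine Cxcl5 had 28.0, 4.92, 68.4 and 14, with folds of 2.44 (2.34 to 2.54) and 2.86 (2.6 to 3.13). The membrane-bound chemokine Cxcl16 and the receptor Tnfrsf9, also called 4-1BB, had folds of 2.34 and 2.40 without TGF-β and 3.22 and 3.28 with it. Others had smaller folds with TGF-β, among them C3, Cxcl3 and C1s1 above. Mmp13, an interstitial collagenase, had 3.31, 6.61, 8.42 and 9.13, and its folds were 2.54 (2.32 to 2.78) and 1.38 (1.29 to 1.48). In Mmp13 the control library alone was low, and its departure of -0.88 became -0.55 after centring, within 1.5-fold.

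**Figure D4:**
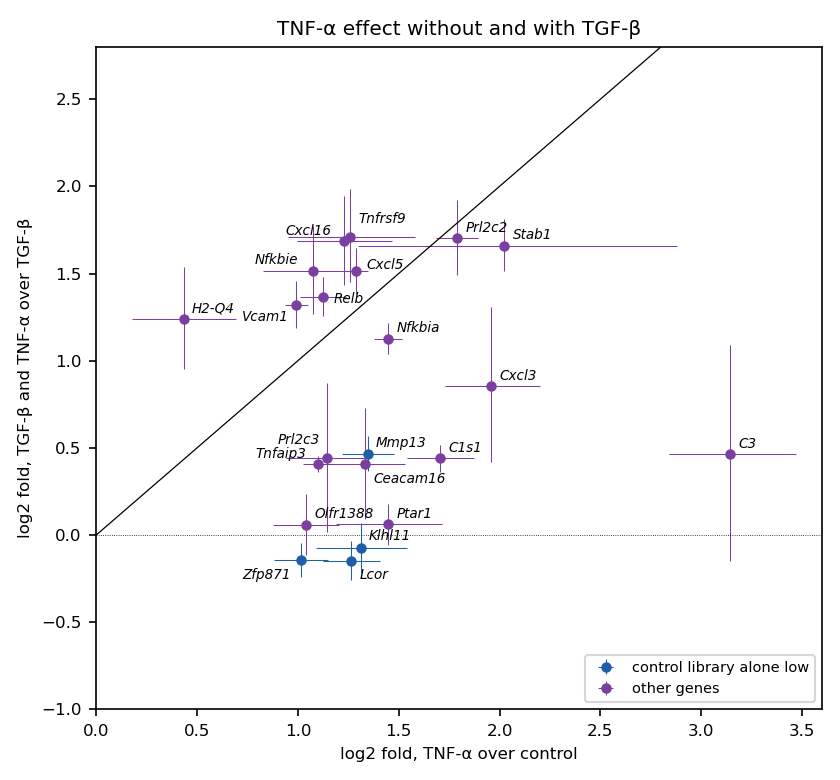
Each point is a named gene with a TNF-α fold over 2 in either pair. The horizontal axis is the log2 fold of TNF-α over control, the vertical axis that of both cytokines over TGF-β, bars are 95% counting intervals and the line marks equal folds. Nfkbia, Relb, Nfkbie, Vcam1, Cxcl5, Cxcl16 and Tnfrsf9 lie near or above the line, C3 at 3.14 and 0.46 far below it, and blue points are genes in which the control library alone was low.

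Genes lower with TNF-α were few. By a fold under 0.5 and an RPKM over 2 in the reference, 8 genes were lower with TNF-α alone (0.0648%) and 4 with TNF-α in the presence of TGF-β (0.0324%). None was in both, but the RPKM minimum limited the overlap in advance. With TGF-β alone, the reference of the second pair, Tff3 had an RPKM of 0 and Lrrc26 of 0.041, so neither could be called there. The missing overlap therefore does not show whether lower levels with TNF-α persist with TGF-β. Cym and Hist1h2bg were the named genes among the 4.

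TGF-β targets were close to the sum or below it. Col7a1, the anchoring fibril collagen, had 0.372, 52.2, 0.412 and 53.4 RPKM. Its log2 fold of TGF-β was 7.13 without and 7.01 with TNF-α. Fibronectin (Fn1) had 2.95 and 2.77, and the Yap/Tead targets Ctgf and Cyr61 3.73 and 3.71, and 2.82 and 2.82. In all 4 genes the response to TGF-β was nearly the same with TNF-α. The departures were -0.12 for Col7a1, -0.18 for Fn1, -0.02 for Ctgf and 0.00 for Cyr61.

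The lists of genes gave no median departure beyond 0.35 in either direction, against -0.01 over all 9933 genes, of which 3.38% lay below and 1.22% above the sum at 1.5-fold. Of 8 measured EMT markers and transcription factors, Snai2, Zeb2 and Hmga2 were below the sum at 1.5-fold and none was above (median -0.23, -0.21 after centring). Centring moved Zeb2 from -0.60 to -0.27 and left both Zeb2 and Hmga2 within 1.5-fold. Hmga2, a chromatin factor, had 48.0, 143, 76.1 and 144 RPKM and a departure of -0.65 (-0.47 after centring), and Snai2, a repressor of epithelial genes, 3.32, 5.88, 5.33 and 4.98 and -0.92 (-0.68). In both genes each cytokine alone was higher than control. Costimulation was lower than TGF-β alone in Snai2 and almost equal to it in Hmga2. Among 16 Smad feedback and direct TGF-β targets, the receptor gene Tgfbr1 (9.39, 17.5, 14.8 and 14.2 RPKM) and the Smad corepressor gene Skil (6.95, 21.7, 11.2 and 20.4) were below by -0.95 and -0.78 (-0.63 and -0.45 after centring, which left Skil within 1.5-fold), and the median was -0.11. All 4 of Hmga2, Snai2, Tgfbr1 and Skil were lowest in control. E-cadherin (Cdh1), with 251, 134, 253 and 121 RPKM, departed by -0.16 (-0.19 to -0.14).

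Cytokine and growth factor genes were split. Of 8 measured interleukins and colony-stimulating factors, 3 were below the sum at 1.5-fold (Il1rn, Il34 and Csf1) and Il11 was above, the median being -0.35 (-0.16 after centring). Il11, a cytokine of the IL-6 family, had 0.205, 17.0, 0.147 and 21.8 RPKM and departed by 0.83 (0.06 to 1.61). Csf1, the macrophage growth factor, had 1.84, 9.0, 3.22 and 9.30, with the 2 TGF-β libraries similar and TNF-α alone above control, and departed by -0.76 (-0.91 to -0.61). Inhba, the activin A subunit, followed the same pattern with 1.33, 15.7, 2.54 and 15.7 and a departure of -0.93. Bmp2, a bone morphogenetic protein, had 7.18, 1.84, 6.12 and 3.08, so costimulation lay above TGF-β alone although TNF-α alone lay below control, and departed by 0.97 (0.79 to 1.16). Ptgs2, the inducible cyclooxygenase, had 9.32, 52.8, 16.2 and 55.2 and a departure of -0.73 that became -0.41 after centring.

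Of 6 measured chemokines, Ccl17 and Cxcl3 were below and none above, and of 7 acute phase and complement genes, C3 and C1s1 were below (medians -0.14 and -0.29). None of 9 genes of MHC class I presentation and none of 5 interferon-stimulated genes passed 1.5-fold (medians 0.17 and 0.08). The highest medians were those of 16 glycolysis and hypoxia genes (0.32, and 0.18 after centring), 24 ribosomal protein genes (0.21 and 0.15) and 18 genes of cholesterol synthesis (0.17 and 0.16). Among these only the glucose transporter Slc2a1 passed 1.5-fold (0.59, and 0.52 after centring, within 1.5-fold). The median of 10 mitochondrial mRNAs moved from -0.08 to 0.25 with centring.

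**Figure D5:**
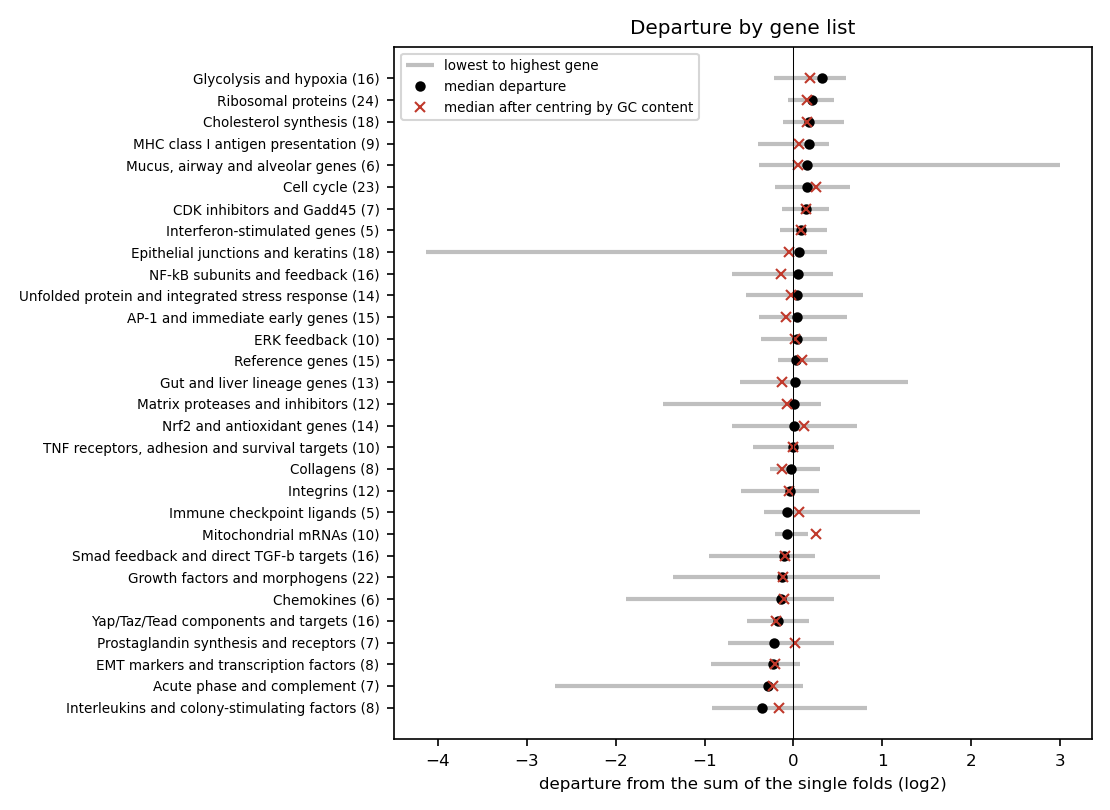
Departure (log2, horizontal axis) for the lists with at least 3 genes measured at RPKM over 2, whose number stands in brackets. Grey bars run from the lowest to the highest gene, black points are medians and red crosses medians after centring by GC content. Medians lie between -0.35 and 0.32, and the 4 longest bars belong to lists that hold Cldn4, C3, Ccl17 or Tff3.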

How the data were processed

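Per the labels and the study's methods, poly(A) RNA of the 4 CMT64 cultures was sequenced, and reads were aligned to mm10 and counted in CLC Genomics Workbench (version not given in the sources used here). The deposited count columns hold total and unique exon reads and intron reads. The RPKM column, derived by the authors from the total exon count, gave the expression levels, and the deposited TPM values were not used. Folds were taken from total exon reads per mapped read, with the exact conditional binomial 95% interval, and departures from read counts plus 0.5, with an interval from 4 Poisson counts. A library with 0 reads was set to a floor of 3 reads for folds, and for departures where this is stated. Genes were grouped by treatment as labelled, and p-values were not computed. GC content was that of the longest coding transcript in GENCODE vM21, and centring subtracted the median of each of 10 bins.

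The genes and lists were chosen with earlier results of these data known. Named are the 10 highest and 10 lowest folds, the 12 largest departures each way, up to 4 genes per list with any that departed, and genes the study names, and unnamed gene models are counted only. Some genes that entered the counts are not reported here. Genes of the TNF-α sets, and genes of lists named for passing 1.5-fold, were chosen after their values were seen. Alternatives were other scalings (TMM of edgeR 4.0.16 in R 4.3.3, size factors), unique reads, other minimum reads, thresholds and pseudocounts, GC centring and a sum of RPKM. Calculations ran in Python 3.11.15 (scipy 1.17.1, pandas 2.3.3, numpy 2.4.6) with plots in matplotlib 3.10.9. Promoters came from RefSeq (GRCm38.p6).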

Additional observations from a re-analysis of the deposited data

Results flagged for a closer look

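In 9 of the 22 named genes that departed by over 2-fold, a cytokine was associated with a lower level in one background and a higher level in the other, with counting intervals on opposite sides of 1. With 1 library per condition this difference was not tested, and the genes were those with the largest departures, so opposite directions are more likely among them. The share of such genes among all 9933 was not counted, so the 9 of 22 cannot be set against it. TNF-α gave a fold below 1 over control and above 1 over TGF-β in Vgf (0.366 and 1.20, departure 1.69), Cideb (0.570 and 1.65, departure 1.53), Tnfsf9 (0.564 and 1.51, departure 1.42), Slco4a1 (0.553 and 1.37, departure 1.31), Ankrd37 (0.535 and 1.28, departure 1.26) and Ybx2 (0.553 and 1.21, departure 1.12). TGF-β did the same in Tnfsf9 (0.469 over control and 1.26 over TNF-α) and Ankrd37 (0.606 and 1.45). Cideb and Ankrd37 overlap genes on the other strand, and the departure of Ybx2 was 0.83 after centring by GC content.

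The opposite order was seen for TNF-α in Hist1h2bg (1.57 over control and 0.448 over TGF-β, departure -1.80), in Lcor (2.40 and 0.902, departure -1.41) and in Prss46 (8 reads with TNF-α against 0 in control, and a fold of 0.840 over TGF-β, departure -4.30 from read counts plus 0.5). In Lcor TGF-β also gave 2.21 over control and 0.830 over TNF-α, and the control library alone was low.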

How the results depend on the processing

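With 1 library per condition the values carry no error between cultures, and the control library, which differed in GC content, enters every departure. No paired analysis was possible because each condition had 1 library and no test was run. TMM scaling, size factors, unique reads, a minimum of 10 reads and GC centring left the 4 counts within 1.5 times, with 459 of the 567 higher, 273 of the 282 lower, 9 of the 12 above and 19 of the 24 below shared after GC centring. Over all settings the higher genes numbered 416 to 710. A minimum of 1000 reads left 6 genes above the sum. RPKM thresholds multiplied by 0.5 gave 25 above and 42 below, and by 2.5 they gave 4 and 13. With log2(RPKM + 0.1) there were 7 and 14, and with log2(RPKM + 1) 2 and 4, and 122 lower genes. A fold under 0.5 with RPKM over 2 gave 620 lower genes. A limit of 1.5-fold gave 121 and 336. A sum of RPKM differences gave 153 above and 38 below, of which 4 and 5 were shared with the 12 and 24, and the sum was above 0 in 8 and 21 of these. It turned Cldn4 to 0.068 and Mmp10 to 0.39, and log2(RPKM + 1) turned Cmtm8 to 0.037. The cause was not tested. Departures of named genes kept their direction in the other 146 comparisons with an alternative, 120 of them within the counting interval. Part of this was fixed in advance. TMM scaling and size factors shift every departure by the same small amount, and the call already required the interval from unique reads to exclude 0. The 22 comparisons with each of these alternatives could not change direction. The TNF-α library as baseline was added after seeing the data.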
